A study of Lupinus micranthus with 18 samples.

Results

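Transcript levels in leaves of America seedlings after 24 h of polyethylene glycol (PEG) drought were compared with those in untreated leaves of the same origin. The comparison rests on 6 of the 18 libraries of the series, 3 per group, chosen by their labels for seed origin and treatment. The plants were seedlings of Lupinus micranthus, a lupin of the legume family, raised from America seeds, and the labelled tissue was leaves. The treated group (A_24h) had 24 h of PEG and the control group (A_CK) had none. The other libraries are America leaves after 72 h of PEG and Iceland leaves without treatment or after 24 h or 72 h. They entered the fit, where they bear on the filter, the scaling and the estimate of spread, and their levels are given beside the 24 h response. The labels give neither the age of the seedlings nor the PEG concentration, and they do not say whether replicates came from separate plants. P-values therefore measure the spread between these libraries, which may be technical, and 24 h of PEG cannot be told apart from age, harvest time or handling.

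PEG in the root medium lowers its water potential, so roots take up less water than they would from the same medium without it. Leaves short of water are known to accumulate the hormone abscisic acid, to close their stomata and to reduce growth and photosynthesis. Transcripts for protective proteins such as dehydrins, for osmolyte synthesis and for detoxifying enzymes commonly rise in plants under drought, and those for photosynthesis and growth commonly fall. The deposited table lists unigenes (assembled transcript units) by identifier and pairs none with a name, a function or a sequence. These classes could therefore not be looked up, and the tissue label was not checked against leaf markers. The response is described here by its size, by the share of the transcript pool it took up, by unigene length and by 4 unigenes chosen by a rule.

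The 6 libraries held 10332305 to 12605500 counts each. A filter on low counts over all 18 libraries left 30895 unigenes for testing, of which 270 had 0 counts in these 6. Among the 24 h libraries, replicate 3 stood apart. Its counts differed from those of replicates 1 and 2 by a chi-square per unigene of 43.4 and 47.2, against 15.3 between replicates 1 and 2 and 15.8 to 29.1 among the untreated libraries. No pair agreed within sampling noise. By correlation of log2 CPM, replicate 3 stood at 0.945 and 0.943 with replicates 1 and 2, which reached 0.964 with each other. Untreated pairs lay between 0.930 and 0.948, so by this measure replicate 3 differed no more than untreated libraries did. In 264 unigenes 24 h replicate 3 was at 5 CPM or more (counts scaled by library totals adjusted with TMM factors) and at least 4-fold above both other 24 h libraries, while replicates 1 and 2 stood out in this way in 48 and 45. The 3 untreated libraries did so within their own group in 51, 14 and 125 unigenes. Of the 264, 186 were among the unigenes called higher at 24 h, as were 16.0% of all tested unigenes, but the high value of replicate 3 chose them. The median level over the 264 was 27.4 CPM in replicate 3, 3.19 CPM in the other 24 h libraries, 1.39 CPM in untreated leaves and 7.0 CPM in America leaves at 72 h. In 183 of them every 72 h library exceeded every untreated America library, which held in 26.2% of all tested unigenes.

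After 24 h of PEG, 4945 unigenes were higher than in untreated leaves, 16.0% of those tested, and 4676 were lower, 15.1% (edgeR quasi-likelihood test, Benjamini-Hochberg adjusted p under 0.05). The median log2 fold change was 1.25 among the unigenes that rose and -1.26 among those that fell, against 0.01 over all tested unigenes. CPM values of the groups did not overlap in 4755 of the unigenes that rose and 4513 of those that fell. Over all tested unigenes, 23.1% stood higher in every 24 h library than in every untreated one and 22.0% lower. The even split between directions depends on the scaling. With DESeq2 size factors 4849 rose and 4757 fell. With library totals alone, fold changes moved up by a median of 0.26 on the log2 scale, and 68.4% of the calls were higher, against 51.4% with TMM. Without 24 h replicate 3, 3440 unigenes rose and 3222 fell, and 3349 and 3120 of these were among the calls made with it. In bulk leaf RNA, fewer cells of a type and less RNA per cell cannot be told apart.

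Most changes were moderate. By fitted fold in the main fit, the classes from 8-fold upward held more rises than falls. Of the rises, 1961 were below 2-fold, 1474 lay between 2-fold and 4-fold, and 679 between 4-fold and 8-fold. A further 361 rose 8-fold to 16-fold, 194 rose 16-fold to 32-fold and 276 rose at least 32-fold. Among the falls the same 6 classes held 1616, 2018, 677, 211, 77 and 77 unigenes. Of all tested unigenes, 9.66% rose and 9.90% fell at least 2-fold. Which direction held more changes of at least 2-fold depended on the setting. Falls were more numerous with no filter on low counts (3288 against 2757) and with limma-voom (3098 against 2631). Rises were more numerous with library totals alone (4280 against 2100). The class above 32-fold held 5.58% of the rises and 1.65% of the falls. Where 1 group had few or no counts, the fitted fold is set largely by the prior count of the fit and is not a bound. Unigenes that rose at least 32-fold had a median of 0.0350 CPM in untreated leaves and 4.39 CPM at 24 h. Those that fell at least 32-fold went from a median of 2.48 to 0.0256 CPM. In the plot of fold change against level, the straight lines of points at the left are unigenes with so few counts.

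**Figure D1:**
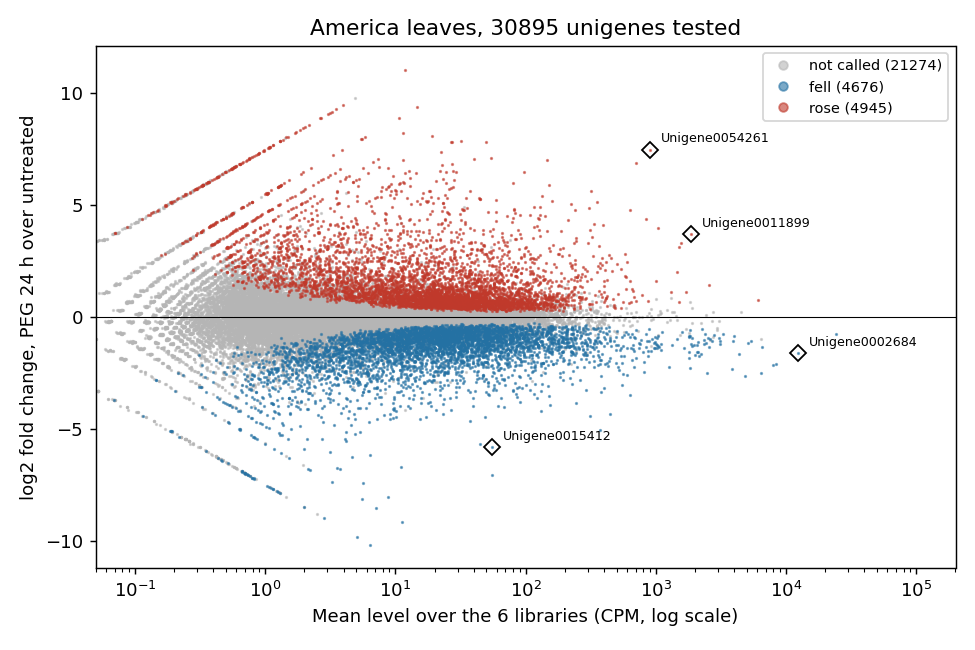
Log2 fold change of each unigene in America leaves after 24 h of PEG over untreated leaves, against its mean level over the 6 libraries in CPM on a log axis. Red points are the 4945 unigenes that rose, blue points the 4676 that fell and grey points the others, diamonds mark the 4 named unigenes, and 463 unigenes below 0.05 CPM lie outside the axis.

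Few unigenes went between under 10 CPM and 100 CPM or more. A group of 23 unigenes rose from under 10 CPM in untreated leaves to 100 CPM or more at 24 h, and 5 fell from 100 CPM or more to under 10 CPM. These levels chose the unigenes, so the gap between their groups is a description. The 23 together held 0.0131%, 0.0131% and 0.00999% of the counts in untreated replicates 1, 2 and 3, and 0.285%, 0.321% and 0.688% in the 24 h replicates. All 24 h libraries were far above the untreated ones, and replicate 3 was the highest 24 h library in 20 of the 23. It was the highest 24 h library in 36.7% of all tested unigenes and in 64.1% of all unigenes that rose. Without replicate 3 the test still called 21 of them. In America leaves at 72 h the 23 held 0.471%, 0.429% and 0.440% of the counts. In Iceland leaves 20 of the 23 rose and none fell at 24 h, where 19.7% of all tested unigenes rose. All 5 unigenes that fell this far also fell in Iceland leaves at 24 h, where 20.6% of tested unigenes fell. At lower levels, 98 unigenes rose from under 1 CPM to between 10 and 100, and another 23 fell from between 10 and 100 to under 1. More often a unigene moved by 1 class of level: 913 rose from between 1 and 10 CPM to between 10 and 100, and 463 fell from 100 or more to between 10 and 100.

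Some unigenes had counts in 1 group alone. A set of 20 unigenes had 0 counts in all untreated America libraries and at least 1 CPM in each 24 h library. All 20 were called higher, as were 16.0% of all tested unigenes, but counts in the same 6 libraries chose them. Taken against 3 counts over the untreated group, or 0.0986 CPM, the mean of the 24 h group was at least 11.4-fold to at least 241-fold higher. The median bound was 28.6-fold. These bounds hold for group means, which ran from 1.13 to 23.8 CPM, and single libraries could lie lower. Only 1 of the 20, with a mean of 7.97 CPM, reached 5 CPM in each 24 h library. At 72 h, 19 of the 20 had counts in every America library. In Iceland, 5 of the 20 had 0 counts in untreated leaves too, and 12 rose at 24 h, where 19.7% of all tested unigenes rose. In the other direction, 8 unigenes had at least 1 CPM in each untreated library and 0 counts at 24 h. Against the mean of the untreated group they were at least 15.7-fold to at least 120-fold lower. All 8 were called lower, as were 15.1% of all tested unigenes, and the same libraries had likewise chosen them. Of these 8, 6 also had 0 counts in all 72 h libraries, 5 had 0 counts in Iceland leaves at 24 h and 3 had 0 counts in untreated Iceland leaves. In Iceland 1 of the 8 fell at 24 h, against 20.6% of all tested unigenes.

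Gains and losses in the transcript pool were large. The unigenes that rose held 11.7%, 11.5% and 10.1% of the counts in untreated replicates 1, 2 and 3. At 24 h they held 29.1%, 28.4% and 38.1%, with replicate 3 well above the other libraries. The unigenes that fell held 50.5%, 53.2% and 55.4% in untreated leaves and 28.2%, 30.1% and 21.7% at 24 h, with replicate 3 the lowest. Groups did not overlap in either set, which the choice of unigenes fixes. Counting error was small beside these spreads: Wilson 95% intervals reached at most 0.0302 points to either side, a figure that covers counting error only. Shares are of counts, so a long transcript counts for more than a short one at the same number of molecules.

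The same sets were also summed in the other libraries, which shared the fit with the 6 but were not in the contrast. In America leaves at 72 h the unigenes that rose at 24 h held 35.3%, 35.0% and 31.1% of the counts, and those that fell held 21.8%, 21.8% and 25.8%. In Iceland leaves at 24 h the sets held 33.0%, 30.6% and 31.0%, and 25.1%, 27.5% and 27.7%. Untreated Iceland replicates 1 and 2 held 10.3% and 10.1% in the first set and 54.3% and 55.5% in the second, close to untreated America leaves. Untreated Iceland replicate 3 stood between the treatments, at 17.0% and 39.9%. Sets called without 24 h replicate 3 gave that library the same position: they held 24.8%, 24.0% and 31.2% of counts at 24 h against 7.81% to 9.18% in untreated leaves for the rises, and 19.3%, 20.9% and 15.5% against 38.5% to 41.9% for the falls.

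**Figure D2:**
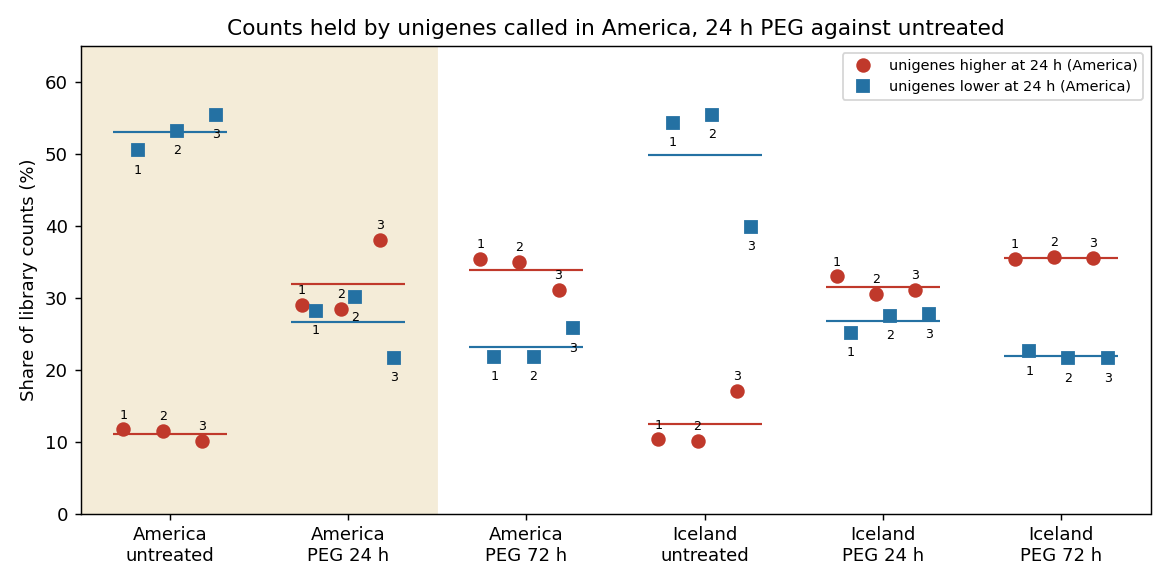
Share of each library's counts, in percent, held by the unigenes that rose (red circles) and fell (blue squares) in America leaves at 24 h, with the 6 libraries that made the calls on a shaded ground, replicate numbers beside the points and lines at group means. In America leaves at 24 h, replicate 3 lies furthest from the untreated libraries in both sets, at 38.1% and 21.7%.

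Losses were concentrated in fewer unigenes than gains. The set that rose gained 20.7 points of the pool and the set that fell lost points amounting to a change of -26.4, while the unigenes not called gained 5.59 points. The 10 unigenes with the greatest loss made up 24.2% of all loss, and 70 unigenes made up 50% of it. The 10 with the greatest gain made up 11.9%, and 279 unigenes were needed for 50%. In these libraries the pool as a whole was more even at 24 h. In untreated leaves 571, 546 and 520 unigenes together held 50% of the counts, and at 24 h 964, 1016 and 1122 did. The effective number of unigenes, the exponential of the Shannon entropy of their shares, was 3485 ± 118 in untreated leaves and 5488 ± 398 at 24 h (SD, n = 3 each). Groups did not overlap in either measure (exact permutation test, two-sided, p = 0.1 for both, the smallest that 3 libraries against 3 can give).

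A rule took 4 unigenes from the 7510 that were called, did not overlap between groups and had at least 10 counts in each of the 6 libraries. Unigene0011899, of 1415 bases, had the largest rise in mean level among these 7510. It stood at 129, 410 and 258 CPM in untreated replicates 1, 2 and 3 and at 4861, 1724 and 3826 CPM at 24 h. All 24 h libraries lay above all untreated ones and spread widely among themselves (log2 fold change 3.71 ± 1.10 SE, edgeR adjusted p = 0.0177). The call was lost without untreated replicate 1 or 3 (edgeR adjusted p = 0.0674 and 0.0641; range over all alternatives 0.00139 to 0.0674). In Iceland leaves it stood at 15.8, 13.9 and 312 CPM without treatment and at 44.8, 142 and 26.6 CPM at 24 h. Iceland groups overlapped, and the test of the difference between the origins' responses did not pass (log2 difference -4.39, edgeR adjusted p = 0.144).

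Unigene0054261, of 1395 bases, had the largest positive fold change among the same 7510. Its level was 12.2, 10.9 and 7.24 CPM in untreated leaves and 1768, 1786 and 1863 CPM at 24 h, so the 24 h libraries lay close together and far above the untreated ones. The log2 fold change was 7.48 ± 0.75 SE, or 178-fold (edgeR adjusted p = 6.6e-06). At 72 h it stood at 2387, 2544 and 1889 CPM and the test of 72 h against 24 h did not pass (edgeR adjusted p = 0.876). In Iceland leaves it went from 6.61, 7.17 and 50.8 CPM to 1609, 1089 and 1980 CPM at 24 h, a log2 fold change of 6.17 ± 0.71 SE (edgeR adjusted p = 1.34e-05). Replicate 3 was the highest untreated library there, and no untreated library reached the level of any treated one.

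Unigene0002684, of 1801 bases, had the largest fall in mean level among the 7510. It held 1.66% ± 0.0416 of the counts in untreated America leaves and 0.651% ± 0.0812 at 24 h (SD, n = 3 each). In CPM it went from 19041, 17892 and 19011 to 6681, 6429 and 5252, with groups far apart and 24 h replicate 3 the lowest (log2 fold change -1.61 ± 0.23 SE, edgeR adjusted p = 0.000118). At 72 h it stood lower still in each library, at 4034, 4135 and 3964 CPM, but the test of 72 h against 24 h did not pass (log2 difference -0.60, edgeR adjusted p = 0.221). Iceland leaves fell from 24966, 24513 and 14274 CPM to 9502, 9106 and 7262 CPM (log2 fold change -1.30 ± 0.23 SE, edgeR adjusted p = 0.000391).

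Unigene0015412, of 2641 bases, had the largest negative fold change among the 7510, while all falls of at least 32-fold had a median log2 fold change of -6.69. It stood at 124, 105 and 98.1 CPM in untreated leaves and at 2.34, 1.99 and 1.46 CPM at 24 h, with all 24 h libraries far below all untreated ones (log2 fold change -5.81 ± 0.42 SE, edgeR adjusted p = 3.63e-07). It had 0.304, 0.607 and 0.818 CPM at 72 h (test against 24 h, edgeR adjusted p = 0.102). In Iceland leaves it went from 120, 88.1 and 37.3 CPM to 1.38, 1.44 and 1.84 CPM (log2 fold change -5.71 ± 0.42 SE, edgeR adjusted p = 4.45e-07). The difference between the origins' responses was 0.09 on the log2 scale and did not pass (edgeR adjusted p = 0.967).

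**Figure D3:**
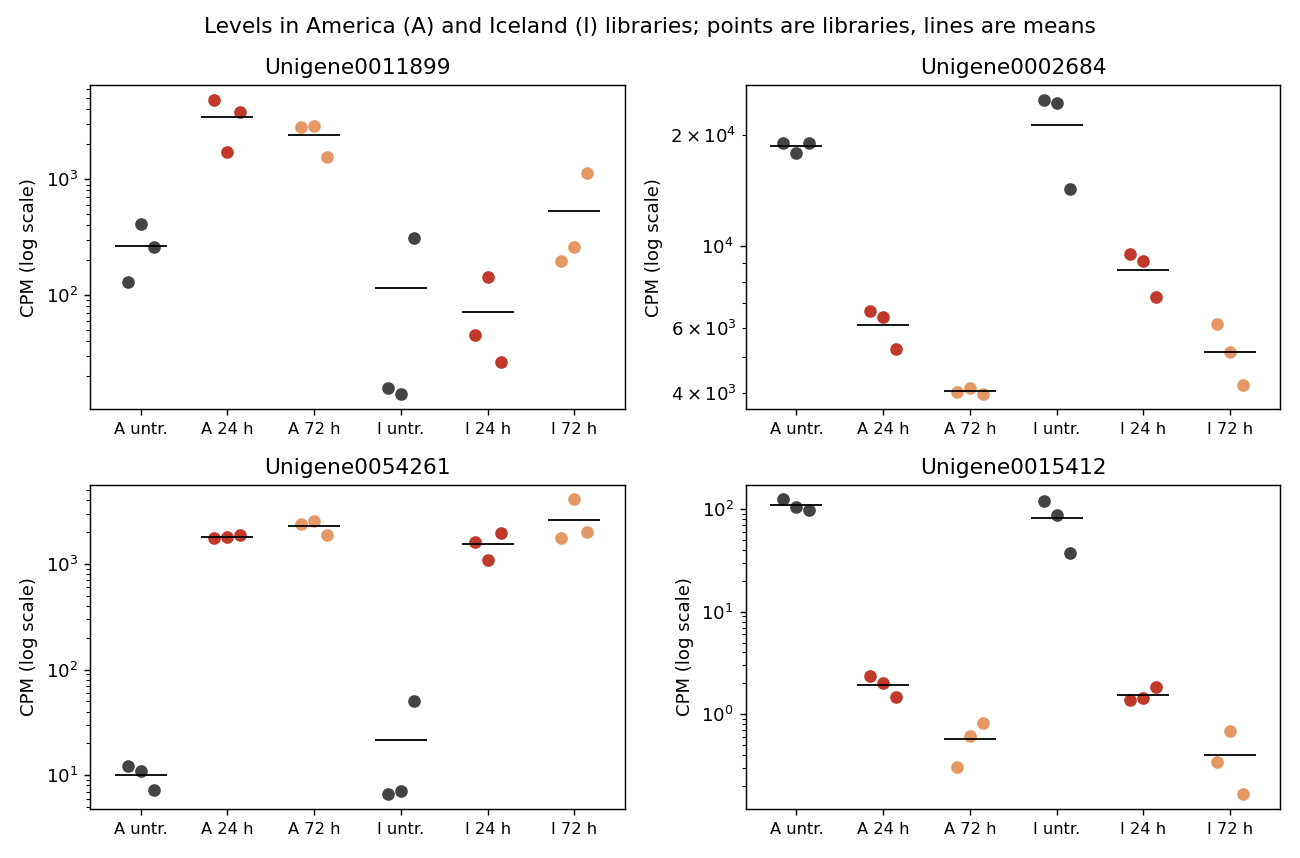
Level in CPM on a log axis of the 4 named unigenes in all 18 libraries, with points for libraries and lines for group means. Unigene0054261, Unigene0015412 and Unigene0002684 separate PEG from untreated libraries in both origins, while the values of Unigene0011899 overlap between untreated and 24 h libraries in Iceland. For America at 24 h the rule that chose the 4 required this separation.

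Unigenes were put into 10 equal classes by mean CPM over all 18 libraries, from class 1 (lowest) to class 10. In class 1, 4.595% rose and 3.79% fell, and in class 10, above 61.9 CPM, 32.5% rose and 27.8% fell. All 142 rises and 117 falls in class 1 were at least 2-fold. In class 10, 475 of 1004 rises and 475 of 860 falls were. Small changes are harder to call at low counts, so these shares do not show how often levels changed. Falls outnumbered rises in classes 4 to 7, for example 645 against 574 in class 7. Rises outnumbered falls in classes 8 to 10, for example 882 against 696 in class 9. Class 10 held 72.1% of the counts in untreated leaves and 68.2% at 24 h, while class 9 went from 11.96% to 13.9%. With library totals alone rises outnumbered falls in all 10 classes, with 859 against 418 in class 7, so the excess of falls in classes 4 to 7 depends on the scaling.

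Unigene length went with direction among the most highly counted unigenes. Of 5 equal classes by mean CPM, class 5 (above 30.2 CPM) was divided by length. Of its shortest unigenes (up to 726 bases) 40.0% fell and 23.1% rose, and of its longest (from 2365 bases) 18.7% fell and 35.2% rose. In the 3 length classes between them, falls lay in order, at 34.8%, 31.2% and 27.3%, and their rises lay between the ends, at 25.7%, 25.7% and 27.9%. The median log2 fold change went from -0.31 in the shortest to 0.21 in the longest class. In Iceland leaves at 24 h, which share no library, the same classes had medians of -0.37 and 0.21. The order of these medians held with library totals alone (-0.05 and 0.46) and without 24 h replicate 3 (-0.31 and 0.19). When unigenes were ranked by CPM per kilobase, the ends of class 5 kept these signs, with medians of -0.17 and 0.20, but the 3 classes between, at -0.01, -0.06 and 0.02, were not in order. The relation did not hold at all levels. In the middle class of CPM the median was 0.05 in the shortest and -0.07 in the longest unigenes. In class 2 it was 0.08 and -0.22, in class 1 it was 0.10 and 0.14, and in class 4 it was -0.15 and 0.05. These are descriptions with no test.

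The length of the transcripts counted also differed. Weighted by counts, mean unigene length was 2300, 2246 and 2251 bases in untreated leaves and 2381, 2399 and 2406 bases at 24 h, with no overlap between groups (exact permutation test, two-sided, p = 0.1, the smallest possible). The share of counts on unigenes under 1000 bases was 13.9% ± 0.321 in untreated leaves and 14.0% ± 0.140 at 24 h (SD, n = 3 each), a difference within the spread of the libraries (exact permutation p = 0.8). The labels report no measure of RNA integrity.

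**Figure D4:**
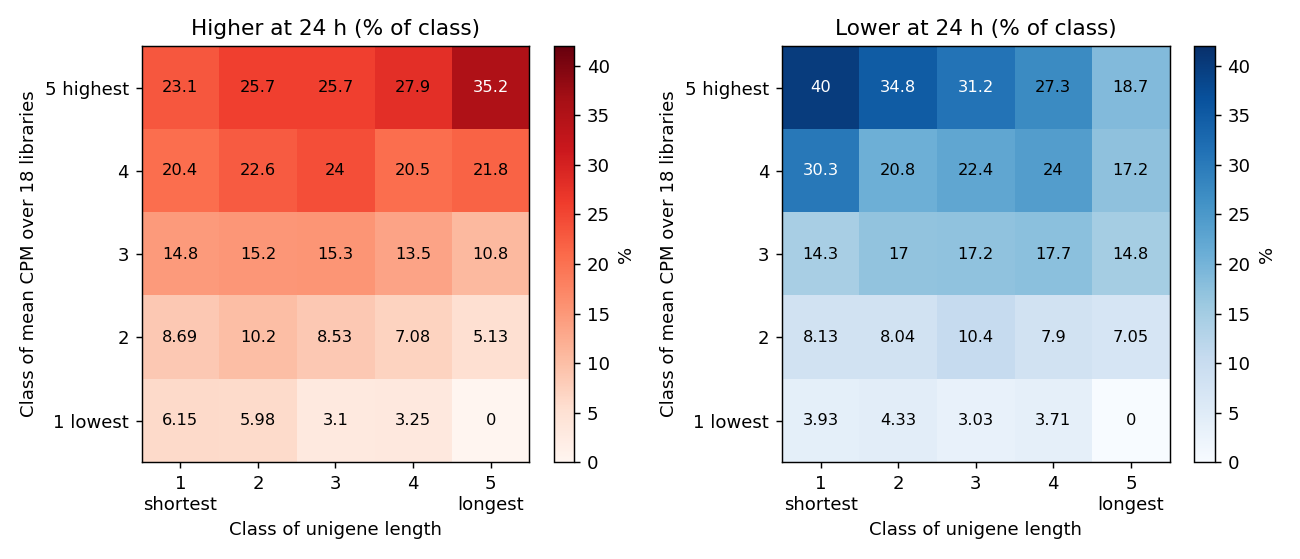
Percent of unigenes that rose (left) and fell (right) in America leaves at 24 h, by 5 equal classes of unigene length (horizontal) and of mean CPM over all 18 libraries (vertical). In the top row falls go from 40.0% in the shortest to 18.7% in the longest class and rises from 23.1% to 35.2%.

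The size of the America response was set beside the response of Iceland leaves at 24 h. Among unigenes that rose in America, 64.9% of those below 2-fold also rose in Iceland, and 55.8% of those at least 32-fold did, against 19.7% of all tested unigenes. The classes between lay between 57.9% and 65.6%. Iceland medians were lower than those of America in every class of rises, at 0.58 against 0.69 (log2) below 2-fold and 3.22 against 5.98 at 32-fold or more. America values chose these classes, so their medians are raised by that choice. Among the falls, 82.8% of those between 2-fold and 4-fold and 76.3% of those between 8-fold and 16-fold also fell in Iceland, where 20.6% of all tested unigenes fell. Iceland medians there were -1.39 and -3.41, against -1.38 and -3.36 in America. In the class from 16-fold to 32-fold 68.8% also fell in Iceland, with a median of -3.73 against -4.33 in America. Without untreated Iceland replicate 3, with the low-count filter applied anew, 20.6% of tested unigenes rose and 21.4% fell in Iceland. The shares of America rises that also rose were then 67.8% below 2-fold and 58.0% at 32-fold or more, and 84.6% of the falls between 2-fold and 4-fold also fell.

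The 77 unigenes that fell at least 32-fold had a lower share. In Iceland 24 of them fell, 31.2% (33.8% without untreated Iceland replicate 3), and their median log2 fold change there was 0. Of the 77, 33 stood under 1 CPM in both Iceland groups and 5 had 0 counts in all 6 of those libraries. Among the 276 rises of at least 32-fold, of which 55.8% also rose in Iceland, these numbers were 91 and 6. The reason for the lower share of the 77 was not tested. Without America 24 h replicate 3, 42 of the 77 kept their call (54.5%), whereas 236 of the 276 rises of at least 32-fold did (85.5%). Of all falls 66.7% kept their call and of all rises 67.7%. Among falls below 2-fold the share was 51.4%.

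**Figure D5:**
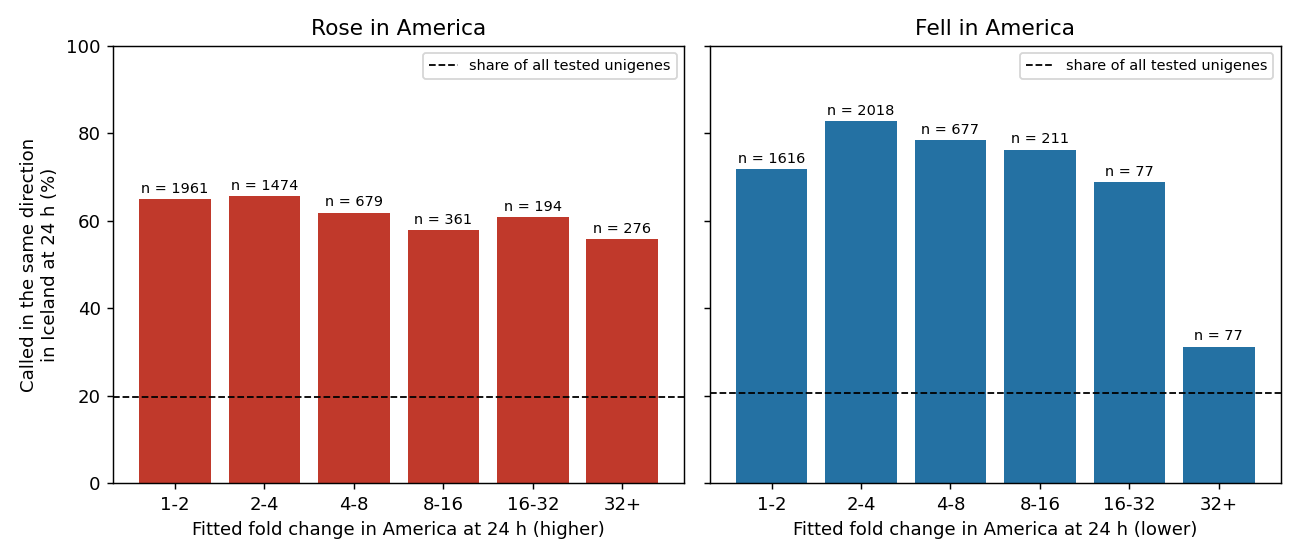
Percent of the unigenes that rose (left) and fell (right) in America leaves at 24 h that were called in the same direction in Iceland leaves at 24 h, by size of the fitted fold change in America, with numbers of unigenes above the bars. Dashed lines are the shares of all tested unigenes called in Iceland, 19.7% higher and 20.6% lower, and the bar for falls of at least 32-fold, at 31.2%, is the lowest.

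A test of the difference itself found a different response in Iceland for 132 of the 9621 unigenes called in America, or 1.37%, against 0.861% of all tested unigenes. Among those that rose in America the response was more negative in Iceland in 57 and more positive in 21, and among those that fell it was more positive in 43 and more negative in 11. This test uses the same America libraries as the calls. The count depended on the libraries used: it was 420 without untreated Iceland replicate 3 and 17 without untreated America replicate 2, and between 48 and 75 without America 24 h replicates 1, 2 or 3 or untreated replicate 3.

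Between 24 h and 72 h few of these unigenes differed. Of the unigenes that rose at 24 h, 72 were higher and 30 lower at 72 h than at 24 h, and of those that fell, 41 were higher and 81 lower (edgeR), where 0.809% of all tested unigenes were higher and 0.605% lower. The tests share the 24 h libraries. Without 24 h replicate 1 the total of these unigenes fell from 224 to 50, without replicate 2 to 51 and without untreated replicate 2 to 142. Set side by side, the median log2 fold change over untreated leaves was 1.25 at both times for the unigenes that rose at 24 h, and -1.26 at 24 h and -1.33 at 72 h for those that fell, with untreated libraries shared by both times.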

How the data were processed

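Per the file headers, the table the authors deposited has a count and an FPKM column for each of 18 libraries. Its counts are whole and may be rounded estimates, since RSEM 1.3.1, with cutadapt 1.18 and bcl2fastq 2.0.1, appears in the submitters' processing notes. Roles, assembly and strand: not given in the sources used here. The deposited FPKM values served only to read unigene lengths, which for 8987 unigenes with a summed FPKM above 200 lay within 0.0208% of whole numbers.

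Counts were used as deposited. edgeR 4.0.16 in R 4.3.3 fitted 6 group means to all 18 libraries (filterByExpr, TMM, quasi-likelihood test, 12 residual degrees of freedom), and p-values were adjusted over 30895 unigenes. The standard error is the log2 fold change over the square root of F. The fit was tested on simulated data. Replicate numbers were not taken as pairs of libraries. The members, rule and tests were chosen with earlier results of these data known. The rule for named unigenes took, among called unigenes with no overlap and at least 10 counts in each of the 6 libraries, the largest rise and fall in mean CPM and the largest positive and negative log2 fold change. Unigenes at 0 counts in a group were compared with 3 counts over it. Alternatives used limma 3.58.1 and DESeq2 1.42.0, and their effect is given at the end.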

Additional observations from a re-analysis of the deposited data

Results flagged for a closer look

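The response to 24 h of PEG differed between America and Iceland leaves, by an edgeR test of the difference itself, in 132 of the 9621 unigenes called in America, or 1.37%, against 0.861% of all tested unigenes. The test shares the America libraries that chose the called unigenes, so the higher share among them is a description. The count was 17 to 194 without 1 of the 6 America libraries and 420 without untreated Iceland replicate 3. None of the 4 named unigenes was among them.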

How the results depend on the processing

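The number of unigenes called, 9621, lay between 6662 and 8546 without 1 of the 6 libraries, with 3440 to 4440 higher and 3222 to 4224 lower. Those changed at least 2-fold lay between 2142 and 2991 higher and between 2201 and 3099 lower. A fit of the 6 libraries alone called 8522 (4047 higher and 4475 lower). Without untreated Iceland replicate 3 the number called was 10449 (5064 higher and 5385 lower). With no filter on low counts it was 8044 (3779 higher and 4265 lower), and with the DESeq2 Wald test 10608 (5320 higher and 5288 lower). Which direction held more calls therefore depended on the setting. A test against a minimum of 1.5-fold, a stricter hypothesis, called 4619 (2298 higher and 2321 lower). The differences from 72 h and from the Iceland response were tested against the same minimum, and 13 and 10 of the 4619 passed. Library totals alone, classes of CPM per kilobase, the lists without 24 h replicate 3 and the Iceland shares by size of fold without untreated Iceland replicate 3 were chosen after seeing the data. The count that differed at 72 h was 50 to 228 without 1 library, 432 without untreated Iceland replicate 3 and 835 with the DESeq2 Wald test. The count with a different response in Iceland was 17 to 194 without 1 library, 420 without untreated Iceland replicate 3, 588 with the DESeq2 Wald test, 269 with no filter on low counts, 84 with library totals alone and 40 with limma-voom; the cause was not tested. Deviations of same-numbered libraries correlated at 0.165, 0.0115 and 0.0221, and those of differently numbered libraries at -0.144 to 0.107. The numbers were not taken as pairs, though these values cannot exclude pairing. With a replicate block in the 6 libraries 3091 unigenes were called higher, and with a replicate block in all 18 libraries 76 called unigenes differed in Iceland. The share of counts in the 20 most abundant unigenes changed by -6.31 points, and that in the 100 most abundant by -8.37. Restricted to changes of at least 2-fold, the gain was 14.1 points and the change in the unigenes that fell -21.5. At a minimum of 5 CPM, 1 unigene with 0 counts untreated (Unigene0002894) and 1 with 0 counts at 24 h (Unigene0074925) were left, named after their values were seen. Calls for Unigene0002684, Unigene0015412 and Unigene0054261 held in all 17 alternatives.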

Other observations

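Untreated Iceland replicate 3 is no part of the America comparison. This library held a larger share of its counts in unigenes that rose in America than any other untreated library. The 23 unigenes that went from under 10 CPM to 100 CPM or more at 24 h in America held 0.262% of its counts, against 0.0118% and 0.0130% in untreated Iceland replicates 1 and 2 and 0.314% to 0.377% in Iceland leaves at 24 h. The same library held 17.0% of its counts in all unigenes that rose in America at 24 h and 39.9% in those that fell.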
